A study of Mus musculus with 6 samples.

Results

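Oxidative phosphorylation is the work of 4 respiratory complexes and an ATP synthase in the inner mitochondrial membrane. Complex I takes electrons from NADH and complex II from succinate. Complex III passes them from ubiquinol to cytochrome c, and complex IV hands them to oxygen. Complexes I, III and IV pump protons, and the ATP synthase uses the return of these protons to make ATP. Most subunits are coded in the nucleus and imported, while 13 proteins of complexes I, III and IV and of the ATP synthase are coded in the mitochondrial DNA and transcribed inside the organelle. In the lens, epithelial cells and young fibre cells hold mitochondria, and fibre cells degrade them as they mature.

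Expression of these genes was measured by RNA sequencing in lenses of Prox1 conditional knockout mouse embryos (Prox1 cKO) and of wild type embryos. Prox1 is a transcription factor that lens fibre cells need in order to elongate and differentiate. The 3 Prox1 cKO libraries came from embryos with floxed Prox1 alleles and the MLR10Cre transgene (genotype Prox1 f/f MLR10Cre+), in which a modified alphaA-crystallin promoter drives Cre in lens cells. The 3 wild type libraries came from embryos to which the labels give neither a floxed allele nor a Cre transgene, so loss of Prox1 and presence of Cre cannot be told apart. All embryos were of strain C57Bl/6 and of age E13.5, each library was a pool of 30 lenses, and the spread behind each p-value is that between pools.

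Members were chosen by gene symbol: names beginning with Nduf and a subunit letter a, b, c, s or v, with Sdh and a letter a to d, with Uqcr, Cox and a digit, or Atp5, and the mitochondrial names for Nd, Co, Cytb and Atp genes. Names marked as pseudogenes were left out. This gave 116 of 41128 features, made up of 103 nuclear and 13 mitochondrially coded genes. Of the nuclear members, 83 were classed as subunits and 20 as assembly factors. The nuclear members lie on 19 chromosomes, with 3 on chromosome X. The filter on low counts was passed by 111 members, 99 of them nuclear.

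The libraries held 28391662, 10907877 and 9082219 counts in Prox1 cKO and 21061582, 20731491 and 20812141 counts in wild type. Counts listed for Lars2, a mitochondrial leucyl-tRNA synthetase gene, were 0.676%, 5.71% and 7.05% of the total in Prox1 cKO libraries 1, 2 and 3. In wild type they were between 0.878% and 1.74%, so Prox1 cKO libraries 2 and 3 stood apart. The source of these reads was not tested. Crystallins took between 2.83% and 3.14% of the counts in Prox1 cKO and between 13.2% and 22.7% in wild type. Levels are therefore given as CPM, a count relative to its library total, scaled by TMM, which sets the libraries on one scale from the bulk of their genes. Prox1 itself had 651, 728 and 707 CPM in Prox1 cKO libraries and 922, 1215 and 1246 CPM in wild type libraries, and was lower in Prox1 cKO (log2 fold change -0.70 ± 0.14 (SE), edgeR adjusted p = 0.0074). All 8 lens markers had counts in every library.

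Nuclear genes of oxidative phosphorylation were on the whole lower in Prox1 cKO lenses, while none of the mitochondrially coded genes was called with TMM scaling. Of the 99 nuclear members tested, 48 were lower in Prox1 cKO, 1 was higher (Ndufa4l2) and 50 were not called (edgeR quasi-likelihood test, adjusted p of at most 0.05 over all 14271 features tested). Over all features tested, 16.8% were called lower and 15.9% higher. The median log2 fold change, Prox1 cKO over wild type, was -0.40 over the nuclear members and 0.04 over all features. In 67 nuclear members every Prox1 cKO library lay below every wild type library, against 25.7% of all features (50.1% did not overlap in either direction). In bulk lenses, fewer cells of a type and less RNA per cell cannot be told apart.

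The summed level of the nuclear members was 7897, 7720 and 6511 CPM in Prox1 cKO libraries and 9168, 10800 and 10510 CPM in wild type libraries. The groups did not overlap. The summed level of the mitochondrially coded members was 24780, 22360 and 21730 CPM in Prox1 cKO libraries and 23030, 20770 and 26150 CPM in wild type libraries, and these groups did overlap. As percent of the library total without this scaling, both statements turned round. The nuclear members then took 0.946%, 0.848% and 0.711% of the counts in Prox1 cKO and 0.901%, 0.910% and 0.877% in wild type, and the groups overlapped. The mitochondrially coded members took 2.97%, 2.46% and 2.37% in Prox1 cKO and 2.26%, 1.75% and 2.18% in wild type, with all Prox1 cKO libraries higher. The ratio of nuclear to mitochondrially coded counts, which does not depend on how libraries are scaled, was 0.319, 0.345 and 0.300 in Prox1 cKO and 0.398, 0.520 and 0.402 in wild type. Every Prox1 cKO library had a lower ratio than every wild type library, with a mean log2 difference of -0.45. No test was made of this ratio.

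**Figure D1:**
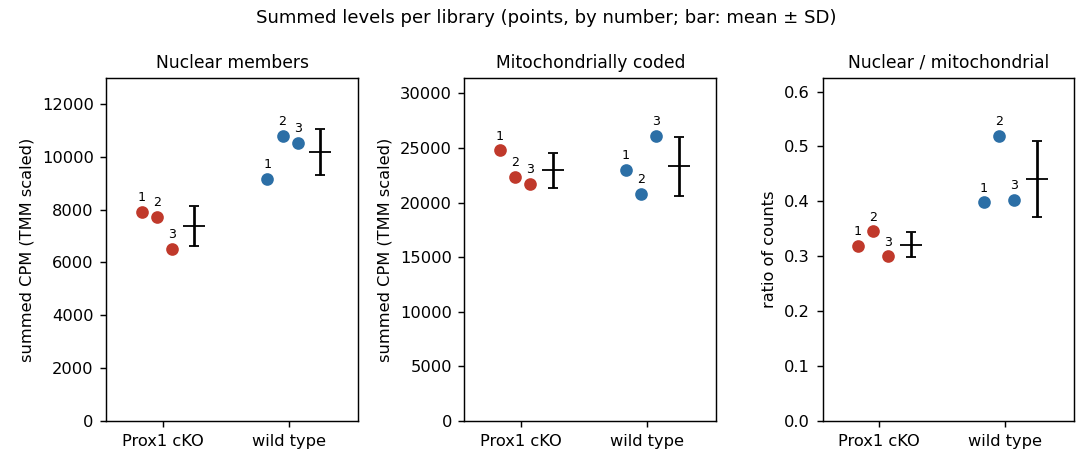
Summed level of the nuclear members (left), of the mitochondrially coded members (middle), both in CPM scaled by TMM, and the ratio of their counts (right), with 1 point per library, Prox1 cKO in red and wild type in blue, and the mean ± SD of 3 libraries beside them. With this scaling, the nuclear sum and the ratio are lower in all Prox1 cKO libraries, while the mitochondrially coded sums overlap.

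The size of the nuclear difference rested on how libraries were put on one scale. With library totals alone, the median of all features moved to 0.39, that of the nuclear members to -0.04 and that of the mitochondrially coded members to 0.33, and the nuclear calls became 7 lower (Ndufs5, Ndufa1, Ndufc1, Ndufv3, Sdhb, Atp5b and Cox14) and 3 higher (Ndufa4l2, Cox7a2l and Sdhc). The higher share of all calls was then 85.2%, against 48.6% with TMM. Class medians then lay between -0.07 and -0.06 for the nuclear subunits of complexes I, III and IV and the ATP synthase and at 0.23 for complex II. Relative to the median of all features, the nuclear members stood at -0.45 with TMM and at -0.44 with library totals. A change of scaling shifts all features by nearly the same amount, so this distance could not differ much. The nuclear count fell to 28 and 29 lower without Prox1 cKO library 2 or 3, to 22 without wild type library 2 or 3, and to 7 without both Prox1 cKO libraries 2 and 3, where the single Prox1 cKO library left is assumed to vary as the others do. All 48 members called lower stayed below 0 when any 1 library was left out, and 21 of them stayed past the threshold each time.

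Markers of other cell types differed between the libraries in the same comparison. Neural retina markers summed to 1937, 1839 and 1363 CPM in Prox1 cKO and 875, 582 and 608 CPM in wild type, with 4 of 10 tested called higher and Sox2 at 0 in every library. Sfrp2 alone held 1357, 1450 and 974 CPM of these sums in Prox1 cKO and 497, 337 and 347 CPM in wild type. Of the 10 tested, 2 had log2 fold changes below 0 and were not called, Crx (-0.35) and Pou4f2 (-0.16). Periocular mesenchyme markers summed to 1027, 732 and 3278 CPM in Prox1 cKO and 584, 294 and 515 CPM in wild type, with 2 of 7 tested called higher and Foxc2 at 0. Pigment cell markers summed to 362, 263 and 728 CPM in Prox1 cKO and 190, 81.1 and 168 CPM in wild type, with 5 of 6 called higher. Over all features 15.9% were called higher. With library totals alone the counts called higher were 7 of 10 for neural retina, 7 of 7 for periocular mesenchyme, 5 of 6 for pigment cells, 5 of 6 each for endothelium and macrophages, against 1 and 0 of 6 with TMM, and 3 of 9 for erythroid markers. Sums for erythroid, endothelial, macrophage and skeletal muscle markers overlapped between the groups. Erythroid markers, 3 of 9 called higher, ran from 1413 to 2258 CPM in Prox1 cKO and from 785 to 2619 CPM in wild type. Lens markers summed to between 19840 and 21750 CPM in Prox1 cKO and between 87000 and 159900 CPM in wild type. Of these 8 markers, 7 were called lower, against 16.8% of all features, and Pax6 was called higher (log2 fold change 0.46). The part of these cell types in the levels of the nuclear members was not tested.

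**Figure D2:**
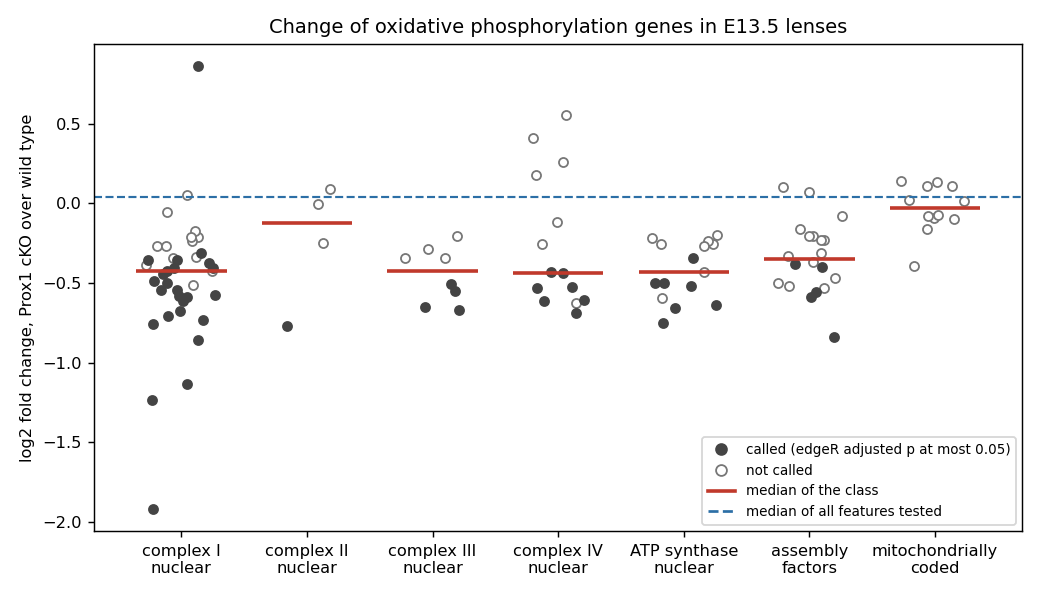
Log2 fold change, Prox1 cKO over wild type, of each member tested (1 point per gene, filled where called by edgeR at an adjusted p of at most 0.05), by class along the horizontal axis. Red bars are class medians and the dashed line is the median of all features tested (0.04). Class medians of the nuclear subunits lie between -0.44 and -0.12, below that line, and the mitochondrially coded median is -0.03 (0.33 with library totals alone).

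**Figure D3:**
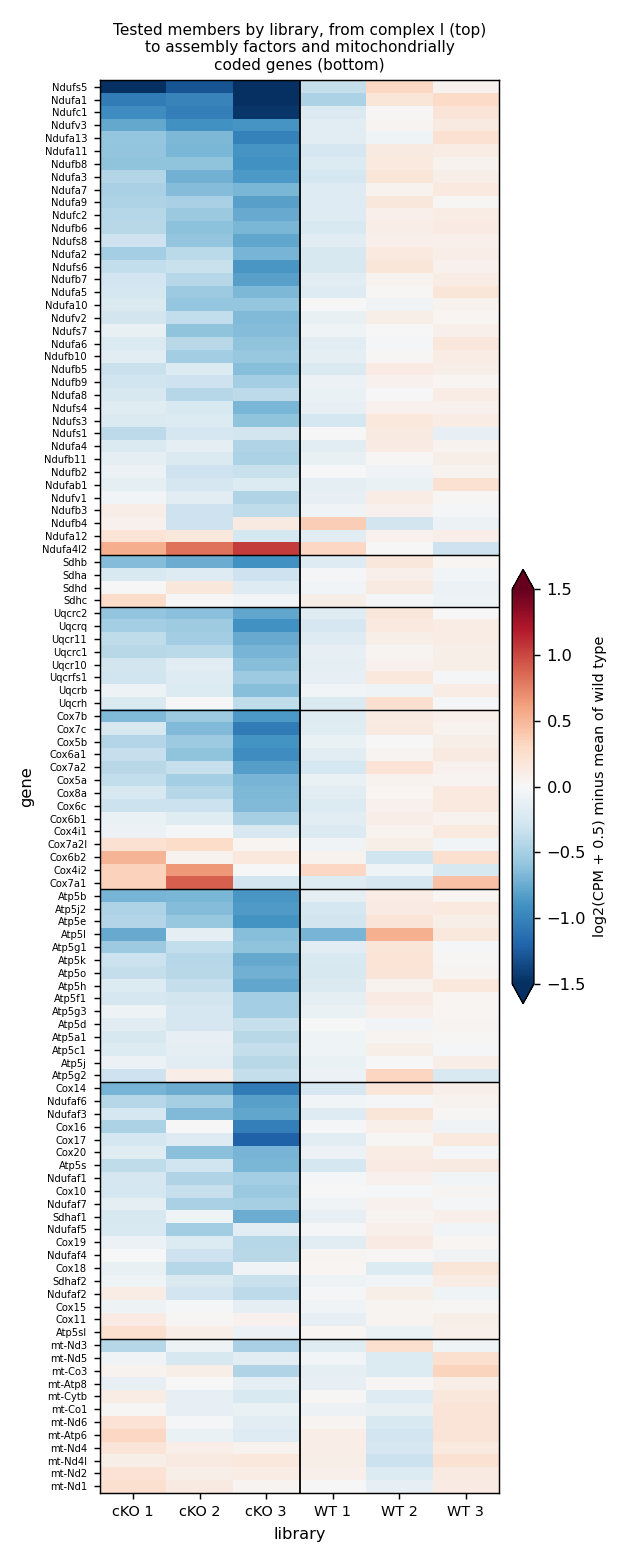
Level of the members tested, with 1 left out (rows, by class and then by fold change), in each library (columns, Prox1 cKO left of wild type), as log2(CPM + 0.5) minus the mean of the wild type libraries. Blue is lower and red higher; the lowest values in most nuclear rows are in Prox1 cKO library 3, and the mitochondrially coded rows at the bottom show no block by group.

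Complex I, the largest of the complexes, had the most calls. Of its 38 nuclear subunits by symbol, 24 were lower and 1 was higher, against 16.8% and 15.9% of all features. Their median log2 fold change was -0.43. Ndufa4 and Ndufa4l2, discussed below, are counted among them and among the accessory subunits. Among the 7 core subunits, those that carry the flavin and the iron-sulphur clusters, 4 were lower, and among the 31 accessory subunits 20 were lower. By symbol, 11 of 15 Ndufa, 5 of 10 Ndufb, both Ndufc, 4 of 8 Ndufs and 2 of 3 Ndufv subunits were lower. The summed level of the nuclear complex I subunits was 2211, 2069 and 1754 CPM in Prox1 cKO and 2556, 3056 and 3077 CPM in wild type.

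The largest fall among all members was that of Ndufs5, an accessory subunit on the intermembrane side of complex I (chr4:123712710-123718202, minus strand, GRCm38). It had 3.18, 5.18 and 2.52 CPM in Prox1 cKO and 10.4, 16.7 and 13.9 CPM in wild type. All Prox1 cKO libraries were low, with a log2 fold change of -1.92 ± 0.29 (SE, edgeR adjusted p = 0.00186). Of its 51-base windows, 21.5% are also in the transcript of BC002163, which is listed with 0 counts in every library, so the level of Ndufs5 is uncertain. Ndufa1, an X-linked accessory subunit (chrX:37187588-37191163, minus strand) needed for complex I assembly, had 126, 131 and 85.8 CPM in Prox1 cKO and 189, 299 and 321 CPM in wild type. Its groups did not overlap either, and the log2 fold change was -1.23 ± 0.22 (SE, edgeR adjusted p = 0.00461). Per length, Ndufa1 was the highest of the nuclear members in wild type, at 309.6 ± 75.0 in Prox1 cKO and 561 ± 103.5 in wild type in the authors' RPKM (SD, n = 3 each). The RPKM is a count relative to the library total, divided by gene length and not scaled by TMM. Its group values can therefore run opposite to the log2 fold changes.

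Ndufc1, an accessory membrane subunit (chr3:51404677-51408988, minus strand), had 51.2, 48.2 and 35.4 CPM in Prox1 cKO and 84.85, 99.9 and 112 CPM in wild type (log2 fold change -1.13 ± 0.16 (SE), edgeR adjusted p = 0.00138). Every Prox1 cKO library was under every wild type library. Ndufv3, a small accessory subunit of the NADH-binding module (chr17:31520115-31531331, plus strand), had 73.0, 66.05 and 67.2 CPM in Prox1 cKO and 110.3, 128 and 137 CPM in wild type (log2 fold change -0.86 ± 0.11 (SE), edgeR adjusted p = 0.000755). Its values were close within Prox1 cKO and well below those of wild type. These 4 falls also passed the threshold with library totals alone and without any 1 library. Of the 111 members tested, 3 were called and at least 2-fold lower, namely Ndufs5, Ndufa1 and Ndufc1, all of complex I. This is a smaller share than the 5.11% of all features (5.86% were called and at least 2-fold higher).

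The core subunits called lower all had log2 fold changes between -0.55 and -0.31. The iron-sulphur subunits Ndufs8 and Ndufs1 had log2 fold changes of -0.55 and -0.31 and the flavin module gene Ndufv2 one of -0.43, all called lower. Ndufv1, which binds NADH and flavin, had a log2 fold change of -0.21 ± 0.12 (SE) and was not called (edgeR adjusted p = 0.207), nor was Ndufs7, which carries the last cluster before ubiquinone (-0.43 ± 0.15, edgeR adjusted p = 0.0620).

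The 1 member called higher was Ndufa4l2, a paralogue of Ndufa4 known as a target of hypoxia-inducible factor. Both genes are in the complex I counts and median by symbol only, and are not in those of complex IV. Ndufa4l2 had 5.20, 6.35 and 7.56 CPM in Prox1 cKO and 4.35, 3.38 and 2.65 CPM in wild type, with no overlap (log2 fold change 0.86 ± 0.25 (SE), edgeR adjusted p = 0.0291). The call was lost without Prox1 cKO library 2 or 3 or wild type library 2 or 3. Its paralogue Ndufa4, listed by symbol with complex I but now known as a subunit of complex IV, had 139, 146.5 and 118 CPM in Prox1 cKO and 143, 175 and 167 CPM in wild type and was not called (log2 fold change -0.27 ± 0.12 (SE), edgeR adjusted p = 0.112; 0.09 with library totals alone). Per length, Ndufa4 was far above Ndufa4l2, at 308.5 ± 41.3 RPKM in Prox1 cKO and 289 ± 8.39 RPKM in wild type (SD, n = 3 each), against 6.49, 7.26 and 8.60 RPKM in Prox1 cKO and 4.45, 2.96 and 2.30 RPKM in wild type.

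In complex II, which has no mitochondrially coded subunit, 1 of 4 subunits was lower, or 25%, near the 16.8% of all features. Sdhb, the iron-sulphur subunit (chr4:140961203-140979193, plus strand), had 114, 106 and 94.4 CPM in Prox1 cKO and 155, 200.1 and 182 CPM in wild type. The groups did not overlap, and the log2 fold change was -0.77 ± 0.12 (SE, edgeR adjusted p = 0.00227). The flavoprotein gene Sdha (-0.25) and the membrane anchor genes Sdhc (0.09) and Sdhd (-0.0025) were not called, and with library totals alone Sdha and Sdhd were above 0. Sdhc had 87.3, 72.5 and 69.9 CPM in Prox1 cKO and 76.7, 70.9 and 68.45 CPM in wild type, and its groups overlapped, unlike those of Sdhb.

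In complex III, 4 of 8 nuclear subunits were lower, against 16.8% of all features. All 8 had a log2 fold change below 0 (4 of 8 with library totals alone), with a median of -0.42. Uqcrc2, a core subunit, had 197, 193 and 173 CPM in Prox1 cKO and 263, 334 and 299.5 CPM in wild type (log2 fold change -0.67 ± 0.12 (SE), edgeR adjusted p = 0.00366). Its groups did not overlap. Of its exons, 19.7% overlap Pdzd9 on the other strand, which the library kit cannot separate, and Pdzd9 had between 0.706 and 1.15 CPM in the 6 libraries. Uqcrc1, the other core subunit, fell by 0.50 on the log2 scale, and the small subunits Uqcrq and Uqcr11 by 0.65 and 0.55. Uqcrfs1, the Rieske iron-sulphur protein, had 108, 116 and 90.5 CPM in Prox1 cKO and 121, 147.5 and 129 CPM in wild type, without overlap, but was not called (log2 fold change -0.34 ± 0.12 (SE), edgeR adjusted p = 0.0583).

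Complex IV had 18 nuclear subunit genes, of which 14 were tested and 7 were lower, against 16.8% of all features. The median log2 fold change of the 14 tested was -0.44. Cox7b, an X-linked subunit (chrX:106015700-106022450, plus strand), had 100.1, 108 and 86.6 CPM in Prox1 cKO and 138, 172 and 167 CPM in wild type (log2 fold change -0.69 ± 0.12 (SE), edgeR adjusted p = 0.00401), and it kept its call without any 1 library. Cox5b, Cox6a1 and Cox7a2 followed at -0.61, -0.61 and -0.53. Cox6a1 had 122, 101.5 and 80.4 CPM in Prox1 cKO and 137, 158 and 169 CPM in wild type, and lost its call without Prox1 cKO library 2 or wild type library 2 or 3 (largest edgeR adjusted p = 0.0636).

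Several complex IV subunits come as isoforms with tissue preference, and the lens expressed the widespread forms. Levels of different genes are compared here in the authors' RPKM only, which is not scaled by TMM. That of Cox4i1 was 54.1 ± 5.63 in Prox1 cKO and 45.8 ± 2.03 in wild type, against 3.88 ± 1.00 and 2.33 ± 0.818 for Cox4i2, the form known from lung and hypoxic cells (SD, n = 3 each). Cox6a1 stood at 164 ± 41.4 RPKM in Prox1 cKO and 194 ± 5.57 RPKM in wild type, while the muscle form Cox6a2 had 2, 1 and 1 counts in Prox1 cKO and 3, 4 and 7 counts in wild type and was not tested. Cox6b1 stood at 293 ± 52.4 RPKM in Prox1 cKO and 272 ± 6.18 RPKM in wild type, against 10.2 ± 2.41 and 6.73 ± 1.46 for the testis form Cox6b2. Cox7a2 stood at 115 ± 22.5 RPKM in Prox1 cKO and 129 ± 11.1 RPKM in wild type, against 3.94 ± 2.12 and 2.11 ± 0.826 for the muscle form Cox7a1. Likewise Cox8a stood at 225 ± 44.7 RPKM in Prox1 cKO and 237 ± 8.93 RPKM in wild type, the muscle form Cox8b had at most 2 counts in a library, and the testis forms Cox8c and Cox7b2 had 0. None of the minor forms tested, Cox4i2, Cox6b2 and Cox7a1, was called, with log2 fold changes of 0.41, 0.26 and 0.55. Cox7a2l had 162, 167 and 142 CPM in Prox1 cKO and 134, 148 and 135 CPM in wild type. It was not called (log2 fold change 0.18 ± 0.10 (SE), edgeR adjusted p = 0.189), but was called higher with library totals alone.

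In the ATP synthase, 7 of 15 nuclear subunits were lower, against 16.8% of all features. All 15 had a log2 fold change below 0 (8 of 15 with library totals alone), with a median of -0.43. Atp5b, the catalytic beta subunit (chr10:128083273-128090391, plus strand), was the nuclear member with most counts, and fell to 969, 978 and 861 CPM in Prox1 cKO, against 1431, 1693 and 1608 CPM in wild type. The groups did not overlap (log2 fold change -0.75 ± 0.12 (SE), edgeR adjusted p = 0.00276). Its partner in the catalytic head, the alpha subunit gene Atp5a1, had 735, 802 and 654 CPM in Prox1 cKO and 832, 899 and 883 CPM in wild type and was not called (log2 fold change -0.25 ± 0.12 (SE), edgeR adjusted p = 0.122). The difference between the changes of Atp5b and Atp5a1 was not tested. Among the smaller subunits, Atp5j2 fell by 0.66 and Atp5e, the epsilon subunit of the central stalk, by 0.64 on the log2 scale.

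The proton-carrying c subunit is coded by 3 genes that give the same mature protein. Atp5g3 was the most abundant per length, at 108 ± 21.3 RPKM in Prox1 cKO and 101 ± 3.82 RPKM in wild type, against 12.4 ± 2.11 and 11.2 ± 2.20 for Atp5g2 and 5.37 ± 0.473 and 6.01 ± 0.483 for Atp5g1 (SD, n = 3 each). Only Atp5g1 was called, with 22.7, 25.7 and 21.8 CPM in Prox1 cKO and 29.8, 38.0 and 32.6 CPM in wild type (log2 fold change -0.52 ± 0.13 (SE), edgeR adjusted p = 0.0162). Of its windows, 10.9% are shared with copies elsewhere in the genome, as are 38.2% of those of Atp5g2.

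Assembly factors, which build the complexes without staying in them, had 5 of 20 lower, or 25%, near the 16.8% of all features. None was higher, and the median log2 fold change was -0.35 (1 lower, 0 higher and 0.0115 with library totals alone). Cox14, which couples synthesis of the mitochondrially coded Co1 protein to complex IV assembly in human cells and yeast (chr15:99725618-99728136, plus strand), had 36.6, 35.4 and 28.5 CPM in Prox1 cKO and 49.9, 67.6 and 62.8 CPM in wild type, with no overlap (log2 fold change -0.84 ± 0.14 (SE), edgeR adjusted p = 0.00361). The complex I factors Ndufaf6, Ndufaf3 and Ndufaf1 fell by 0.59, 0.55 and 0.40, and Cox10, which makes the haem of complex IV, by 0.38 on the log2 scale. The counts of Cox11, Cox16, Cox20, Ndufaf2 and Sdhaf1, none of them called, are uncertain, since between 43.0% and 84.4% of their windows are in transcripts of other genes. Among the nuclear members with at most 10% of their windows in transcripts of other genes, 39 of 75 were lower.

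The 13 mitochondrially coded genes fell into 2 ranges of level. Cytochrome b of complex III (mt-Cytb) had 6191, 5270 and 4926 CPM in Prox1 cKO and 5837, 5017 and 6486 CPM in wild type. The catalytic subunit of complex IV (mt-Co1) had 4973, 4495 and 4565 CPM in Prox1 cKO and 4627, 4526 and 5620 CPM in wild type. In both the groups overlapped. The complex I subunit mt-Nd1 had 3756, 3477 and 3261 CPM in Prox1 cKO and 3174, 2910 and 3444 CPM in wild type, and the ATP synthase subunit mt-Atp8 had 1503, 1631 and 1473 CPM in Prox1 cKO and 1497, 1660 and 1755 CPM in wild type. With mt-Nd2, mt-Nd4, mt-Nd5 and mt-Nd6, these 8 genes ran from 949 to 6486 CPM over the libraries. The other 5 were far lower in both groups. The range over the 6 libraries was 20.96 to 30.9 CPM for mt-Nd4l, 9.48 to 16.7 CPM for mt-Co3, 10.4 to 16.0 CPM for mt-Atp6, 2.02 to 3.66 CPM for mt-Nd3 and 0.0835 to 0.338 CPM for mt-Co2.

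These 5 genes are the ones whose sequence is almost wholly repeated in annotated transcripts of other genes. Copies outside annotated transcripts were not searched for. This matters for mt-Atp8, at 0% shared, which starts between mt-Co2 and mt-Atp6. The stretch between the nuclear copies of those genes was not searched. In the annotation, 7 copies of mitochondrial genes stand side by side on chromosome 1 (chr1:24611535-24616197, GRCm38, minus strand), and the copies of mt-Nd4l, mt-Co3, mt-Atp6 and mt-Co2 differ from the originals at 0 aligned bases and that of mt-Nd3 at 1. Of the 51-base windows of the 5 genes, the length of a read here, between 98.0% and 100% occur in transcripts of other genes, against between 0% and 62.2% for the 8 abundant ones. The 60 bases below show it for mt-Co2 (chrM:7313-7372, plus strand) and its copy Gm28661 (chr1:24615206-24615265, minus strand), in the GENCODE sequence, with no base set in capitals because none differs.
mt-Co2: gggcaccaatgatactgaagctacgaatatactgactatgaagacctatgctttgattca
Gm28661: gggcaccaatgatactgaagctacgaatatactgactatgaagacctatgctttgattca
Of the 7 copies, 1 is listed in the tables (Gm10222, the copy of mt-Nd4l), with 0 counts in every library. No source used here says how reads with several matches were counted, and the levels of these 5 genes are uncertain.

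**Figure D4:**
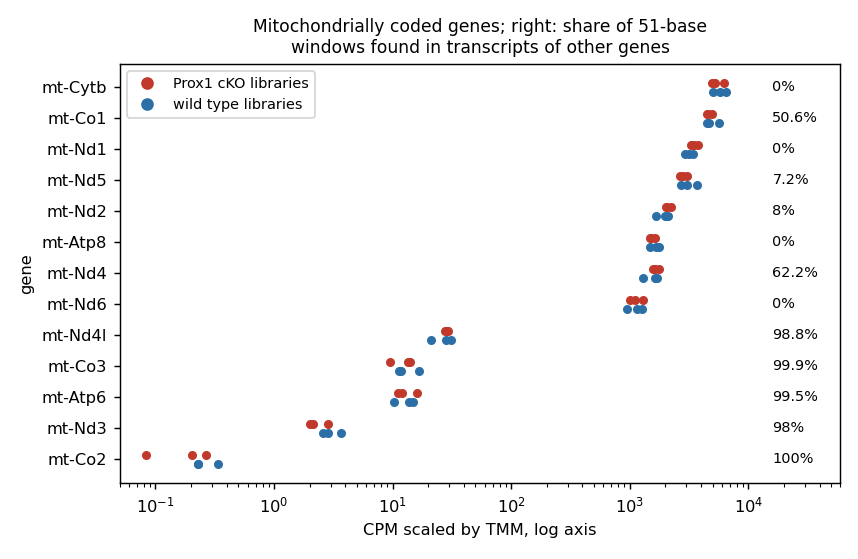
Level of each mitochondrially coded gene in CPM scaled by TMM (log axis), 1 point per library, Prox1 cKO in red above wild type in blue, with the percent of 51-base windows shared with other genes at the right. The 5 genes with at least 98.0% of windows shared lie below 100 CPM and the 8 others near or above 1000 CPM, and within each gene the groups overlap.

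None of the 12 mitochondrially coded genes tested was called by edgeR, DESeq2 or limma-voom, and 0 had an unadjusted p under 0.05 in edgeR. Their median log2 fold change was -0.03. Of the 8 abundant genes, mt-Nd1 (0.14), mt-Nd2 (0.14), mt-Nd4 (0.11) and mt-Nd6 (0.01) stood above 0 and mt-Atp8 (-0.09), mt-Cytb (-0.08), mt-Co1 (-0.07) and mt-Nd5 (-0.16) below it, with SEs between 0.12 and 0.16. The other 4 tested had log2 fold changes of 0.11 for mt-Nd4l, 0.02 for mt-Atp6, -0.10 for mt-Co3 and -0.40 for mt-Nd3. mt-Co2 had between 1 and 9 counts in a library and was not tested. With library totals alone, mt-Nd1, mt-Nd2 and mt-Nd4 were called higher in Prox1 cKO. The ribosomal RNA genes mt-Rnr1 and mt-Rnr2 were listed at 0 in every library.

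Genes that feed the respiratory chain were counted in the same way. Of 17 genes of the citric acid cycle and pyruvate dehydrogenase, 9 were lower, or 52.9%, and none higher, with a median log2 fold change of -0.30 (1 lower, 2 higher and 0.0506 with library totals alone). Idh3g, a regulatory subunit of NAD-dependent isocitrate dehydrogenase, had 92.5, 86.3 and 80.9 CPM in Prox1 cKO and 126, 157 and 155 CPM in wild type (log2 fold change -0.75 ± 0.11 (SE), edgeR adjusted p = 0.00195), and Sucla2, a succinyl-CoA ligase subunit, and Idh3b fell by 0.60 and 0.46. Citrate synthase, Cs, had 241, 232 and 209 CPM in Prox1 cKO and 238, 213 and 227 CPM in wild type, and did not pass the test. Of 13 genes of electron carriers and ubiquinone synthesis, 3 were lower, or 23.1%, near the 16.8% of all features (1 lower and 1 higher with library totals alone). Etfb, which passes electrons from fatty acid oxidation towards ubiquinone, had 95.5, 95.3 and 71.0 CPM in Prox1 cKO and 166, 216 and 218 CPM in wild type (log2 fold change -1.19 ± 0.15 (SE), edgeR adjusted p = 0.000947), and Coq2 and Coq9 fell by 0.49 and 0.47.

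Of 25 further assembly factors tested, 6 were lower, close in share to the 16.8% of all features, and none was higher (1 lower and 3 higher with library totals alone), led by Coa5 of complex IV and Ecsit and Timmdc1 of complex I at log2 fold changes of -0.79, -0.77 and -0.63. Of 10 carriers, porins and uncoupling genes tested, 2 were lower and 1 higher, again near the shares of all features (0 lower and 3 higher with library totals alone). Slc25a4, the ADP/ATP carrier of muscle and heart, had 431, 409 and 367 CPM in Prox1 cKO and 538, 663.5 and 639 CPM in wild type (log2 fold change -0.61 ± 0.12 (SE), edgeR adjusted p = 0.00697), and the porin gene Vdac2 fell by 0.52. Ucp2, an uncoupling protein family member, had 36.9, 38.1 and 47.0 CPM in Prox1 cKO and 30.7, 19.6 and 20.5 CPM in wild type (log2 fold change 0.78 ± 0.19 (SE), edgeR adjusted p = 0.0150). Nnt, the proton-driven transhydrogenase that some C57Bl/6 substrains lack, was at 106.5 ± 3.35 CPM in Prox1 cKO and 106.0 ± 2.83 CPM in wild type (SD, n = 3 each). Its level thus did not separate the groups.

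Among genes of mitochondrial fission, fusion and mitophagy 8 of 11 were lower, against 16.8% of all features, and none was higher. The median log2 fold change was -0.51 (1 lower, 2 higher and -0.16 with library totals alone). Bnip3l, a mitophagy receptor that clears mitochondria in maturing red cells and lens fibres, had 198, 214 and 186 CPM in Prox1 cKO and 286, 397 and 357 CPM in wild type, with no overlap (log2 fold change -0.80 ± 0.13 (SE), edgeR adjusted p = 0.00330). Its relative Bnip3 and the ubiquitin ligase gene Park2 fell by 0.75 and 1.26, and Park2 was at no more than 3.63 CPM in any library. The kinase gene Pink1, which acts with Park2, had a log2 fold change of 0.24 and was not called.

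Of 14 genes tested of the machinery that copies and transcribes mitochondrial DNA, 3 were lower, or 21.4%, near the 16.8% of all features, and none was higher, with a median log2 fold change of -0.17 (1 lower, 1 higher and 0.19 with library totals alone). Top1mt, the mitochondrial topoisomerase, had 12.4, 10.8 and 10.3 CPM in Prox1 cKO and 20.6, 20.4 and 21.7 CPM in wild type (log2 fold change -0.90 ± 0.13 (SE), edgeR adjusted p = 0.00149), and the elongation factor Tefm and the methyltransferase Tfb1m fell by 0.69 and 0.42. Tfam, the main packaging and transcription factor, had a mean of 80.0 CPM in Prox1 cKO and 79.8 CPM in wild type, and Polrmt, the polymerase, had a log2 fold change of -0.09. Neither was called.

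Regulators of mitochondrial genes in the nucleus included 3 that were higher and 1 that was lower of 12 tested, against 15.9% higher and 16.8% lower of all features (8 higher and 1 lower with library totals alone). Ppargc1a, the coactivator PGC-1alpha that raises expression of respiratory genes in many tissues, had 11.1, 9.35 and 12.7 CPM in Prox1 cKO and 6.08, 3.44 and 4.43 CPM in wild type (log2 fold change 1.24 ± 0.24 (SE), edgeR adjusted p = 0.00552). All Prox1 cKO libraries were above all wild type libraries. Its relative Ppargc1b rose by 1.09, and Nrf1, whose product binds promoters of respiratory genes, by 0.30 on the log2 scale. Nfe2l2, the regulator of the oxidative stress response, had 58.8, 52.0 and 55.0 CPM in Prox1 cKO and 102, 107 and 91.7 CPM in wild type (log2 fold change -0.86 ± 0.10 (SE), edgeR adjusted p = 0.000520). Gabpa, Yy1, Esrra and Hif1a were not called, with log2 fold changes of 0.09, 0.01, 0.46 and -0.17.

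Promoters of some nuclear members hold letters that these factors are known to read, though most matched members lacked each of the motifs searched. RefSeq windows (GRCm38.p6) from 250 bases before to 50 after a transcription start were matched for 85 of the 103 nuclear members, with 92 windows. The NRF1 motif GCGCATGC, searched on both strands, was in 12 of these windows, or 13.04%, against 2.71% of all 32851 windows. The ETS motif CCGGAAG, bound by GABP, was in 27.2% against 8.86%, and the YY1 motif AAGATGGCG in 10.9% against 1.40%. The last 3 letters of the ETS motif are the first 3 of the YY1 motif, so a joint run can hold both. Among members called lower, 19.0%, 28.6% and 9.52% of 42 windows held the NRF1, ETS and YY1 motif, and among members tested and not called 8.33%, 27.1% and 12.50% of 48 windows. The longer NRF1 motif with GC after these letters was in 9.52% and 6.25% of the same windows, and the differences between the sets were not tested. A match is a run of letters and says nothing of binding in these lenses. The 250 bases before the start are shown for the 3 members with the largest falls among those called lower with a motif there, Sdhb (NRF1 motif as its reverse complement; chr4:140961021-140961270, plus strand), Ndufa11 (NRF1 motif on both strands; chr17:56717512-56717761, plus strand) and Atp5e (ETS motif as its reverse complement; chr2:174464102-174464351, minus strand), with the motifs in capitals.
Sdhb: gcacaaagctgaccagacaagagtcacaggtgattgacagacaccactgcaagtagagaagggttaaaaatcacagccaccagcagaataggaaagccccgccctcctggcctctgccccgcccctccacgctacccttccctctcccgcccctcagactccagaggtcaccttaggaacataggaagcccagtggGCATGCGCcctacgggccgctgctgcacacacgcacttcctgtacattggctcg
Ndufa11: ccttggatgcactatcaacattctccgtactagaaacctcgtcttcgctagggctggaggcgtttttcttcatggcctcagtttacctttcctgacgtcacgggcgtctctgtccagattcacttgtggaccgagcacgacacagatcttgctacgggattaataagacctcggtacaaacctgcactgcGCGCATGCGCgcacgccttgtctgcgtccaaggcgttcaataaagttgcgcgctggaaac
Atp5e: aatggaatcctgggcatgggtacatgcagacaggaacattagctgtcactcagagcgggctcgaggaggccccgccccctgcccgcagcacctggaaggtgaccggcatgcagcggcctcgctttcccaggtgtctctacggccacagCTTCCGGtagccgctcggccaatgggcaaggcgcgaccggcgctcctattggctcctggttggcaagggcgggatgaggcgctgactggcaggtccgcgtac

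Ndufa11, a membrane subunit of complex I, had 34.9, 32.6 and 28.3 CPM in Prox1 cKO and 44.4, 58.1 and 57.28 CPM in wild type (log2 fold change -0.73 ± 0.13 (SE), edgeR adjusted p = 0.00490). Atp5e had 140.4, 129 and 102 CPM in Prox1 cKO and 157, 218 and 204 CPM in wild type (log2 fold change -0.64 ± 0.16 (SE), edgeR adjusted p = 0.0161). In both, as in Sdhb, all Prox1 cKO libraries were below all wild type libraries.

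Within the groups, Prox1 cKO library 3 was the lowest of its group in 87 of the 99 nuclear members tested, or 87.9%, against 38.7% of all features. Wild type library 1 was the lowest of its group in 76, or 76.8%, against 38.1% of all features. Prox1 cKO library 3 also had the highest sums of periocular mesenchyme and pigment cell markers, and with library 2 a high share of Lars2. The part of these in the levels of the members was not tested. Across the 99 members, the rank correlation of the log2 fold change with the mean level was -0.17, a description over genes that share libraries.

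**Figure D5:**
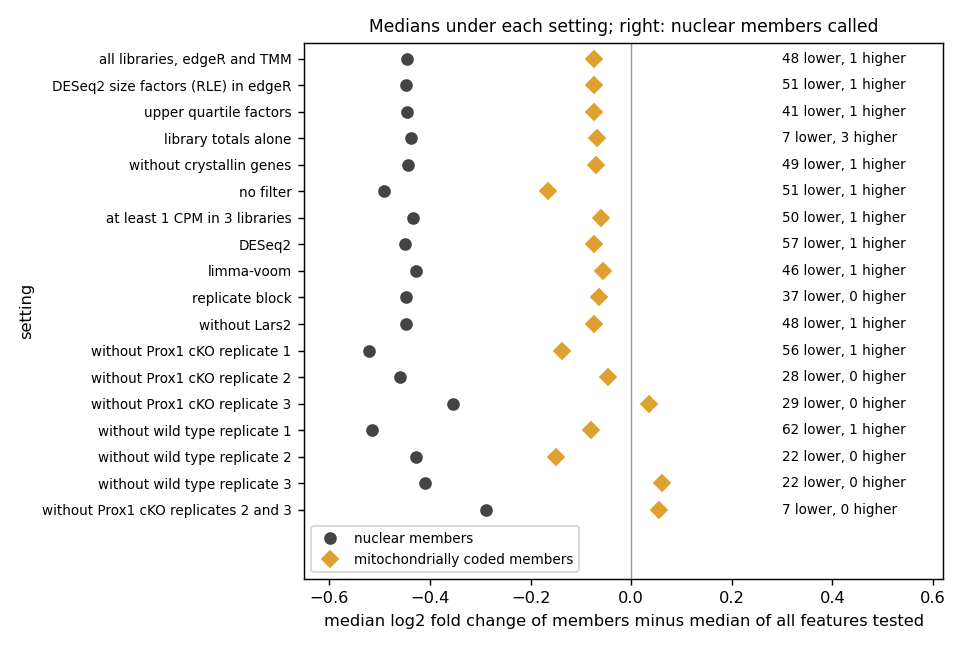
Median log2 fold change, Prox1 cKO over wild type, of the nuclear members (circles) and of the mitochondrially coded members (diamonds) minus the median of all features tested, for each setting down the vertical axis, with the nuclear members called at the right. The nuclear median lies between -0.52 and -0.29 in every setting shown, while the count called lower runs from 7 to 62. Settings that change only the scaling shift all features nearly alike and so cannot move this distance much.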

How the data were processed

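RNA from pools of 30 lenses was selected by poly(A), made into unstranded libraries and read as single ends of 51 bp, per the labels' protocols. Per the file headers, the 6 deposited tables hold the raw count of each feature with its CPM and RPKM. The authors' CPM is the count relative to the library total, and the authors' RPKM divides it by 1 length per feature. Per the submitters' processing notes the build was GRCm38 and edgeR was used; no source used here names the aligner or counter. A count and its CPM disagreed (tolerance 1e-06) for 26 features, none a member, which were left out.

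Counts were analysed in R 4.3.3 with edgeR 4.0.16: filterByExpr (minimum count 10), TMM, quasi-likelihood test, Benjamini-Hochberg adjustment over the 14271 features tested, threshold 0.05. Log2 fold changes are Prox1 cKO minus wild type with SE; n = 3 libraries per group. The depth of 9082219 to 28391662 counts makes 3 counts worth 0.106 to 0.330 CPM. The script was tested on simulated data. Alternatives were DESeq2 1.42.0, limma 3.58.1 (voom), other scalings and filters, a replicate block and leaving out libraries. All members matched GENCODE release 21 by identifier. Shared windows are runs of 51 bases also in transcripts of other genes, on either strand.

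Genes named were all mitochondrially coded members, up to 4 called in each direction per class, isoform groups, Prox1, Nnt and up to 3 called in each direction in each further list. Other genes were chosen after their values were seen. The members and lists were chosen with earlier results of these data known. The values of 1 member are not reported here, though it is in the counts, sums and medians.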

Additional observations from a re-analysis of the deposited data

How the results depend on the processing

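Beside the scaling and libraries described above, the count of nuclear members called lower was 51 with RLE factors, 41 with upper quartile factors, 49 without crystallin genes, 51 with no filter, 50 with at least 1 CPM in 3 libraries, 46 with limma-voom, 57 with DESeq2, 48 without Lars2 and 39 among members with at most 10% of windows shared (the last 2 chosen after seeing the data, as was leaving out Prox1 cKO replicates 2 and 3 together). Without 1 library in turn it ran from 22 to 62, members called higher from 0 to 1 and all calls from 2267 (without wild type replicate 2; 2475 without wild type replicate 3) to 5317. Per complex, for calls in either direction with assembly factors and mitochondrially coded genes included, these ranges were 11 to 34 for complex I (28 with all libraries), 1 to 2 for complex II (1), 3 to 6 for complex III (4), 4 to 11 for complex IV (9) and 2 to 11 for the ATP synthase (7). With library totals alone the counts called were 3 nuclear higher, 7 nuclear lower, 3 mitochondrially coded, and 8, 2, 0, 2 and 1 in complexes I, II, III and IV and the ATP synthase. Without Prox1 cKO replicates 2 and 3 together they were 2253 features, 0 nuclear higher, 7 nuclear lower, and 4, 0, 2 and 0 in complexes I, III and IV and the ATP synthase. DESeq2 called 2 members of complex II. The mean log2 difference in the share of counts between Prox1 cKO and wild type was -0.11 for nuclear and 0.33 for mitochondrially coded members, and -0.38 and 0.0675 with crystallins left out of the total.

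Replicate numbers did not pair all of the libraries: the correlations of same-numbered deviations were -0.03, 0.25 and 0.11. The libraries numbered 2 and 3 correlated best with their own number, and those numbered 1 did not. With replicate number as a block, 37 nuclear members were lower and 0 higher.

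Genes named by rule that were not called and changed sign were these, as log2 fold changes. With library totals alone they were mt-Atp8 0.26, mt-Co1 0.28, mt-Co3 0.26, mt-Cytb 0.27, mt-Nd5 0.20, Cox4i1 0.24, Cox6b1 0.11, Ndufa4 0.094, Atp5g2 0.15 and Atp5g3 0.092. Leaving out 1 library in turn, mt-Atp6 ran from -0.17 to 0.13, mt-Co1 from -0.16 to 0.0058, mt-Co3 from -0.23 to 0.0699, mt-Nd4 from -0.0387 to 0.16, mt-Nd4l from -0.0678 to 0.20, mt-Nd6 from -0.13 to 0.10 and Nnt from -0.0423 to 0.0213. Without Prox1 cKO replicates 2 and 3, mt-Co1 was 0.0141, mt-Co3 0.0309 and mt-Cytb 0.10. mt-Nd6 was -0.0028 with RLE factors and -0.0027 with DESeq2, and Nnt -0.0068, -0.0063 and, with no filter, -0.0024. Of the other uncalled genes named, Sdha (0.10), Sdhd (0.35), Ndufv1 (0.15), Uqcrfs1 (0.0167), Atp5a1 (0.0992), Polrmt (0.26) and Hif1a (0.18) were above 0 with library totals alone, and Sdhc, Sdhd, Cs, Tfam and Yy1, all between -0.0025 and 0.0916 with all libraries, took either sign when 1 library was left out. The cause of these changes was not tested. Depth limits Cox6a2 and Cox8b, which were under the filter. mt-Co2 was also under it, but 100% of its windows are in transcripts of other genes, so its level is uncertain.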

Other observations

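Values listed for the 5 members left untested were few. Cox6a2 had 2, 1 and 1 counts in Prox1 cKO and 3, 4 and 7 counts in wild type, Cox8b had 0, 1 and 2 counts in Prox1 cKO and 1, 0 and 1 counts in wild type, and mt-Co2 had 9, 1 and 2 counts in Prox1 cKO and 7, 4 and 4 counts in wild type. Cox7b2 and Cox8c had 0 counts in all 6 libraries, which allows a level of up to 0.106 to 0.330 CPM (3 counts in a library, for counting error only).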
